A study of Mus musculus with 28 samples.

Results

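Sall1, the zinc-finger transcription factor gene of microglia, and the core genes of transforming growth factor beta (TGF-beta) signalling were followed from yolk-sac macrophages (YSM) to adult microglia. The genes were chosen by symbol and numbered 8: Sall1, the ligand gene Tgfb1, the receptor genes Tgfbr1 and Tgfbr2, and Smad2, Smad3, Smad4 and Smad7. Of the 45281 probes on the arrays, 15 were annotated to 7 of these 8 genes. Of the 8 genes, 6 were measured above background and tested among 10630 genes. Smad7 had 1 probe, which was detected on 0 of 25 arrays, and Smad4 was not analysed here because the annotation used paired no probe with it.

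The arrays were Illumina Mouse WG-6 bead arrays of total RNA from macrophages that had been sorted by flow cytometry from mice of the strain labelled C56BL/6. No mutation or treatment was labelled for any group. The groups were YSM, taken from the yolk sac at E10.5 (4 arrays), and brain microglia of 7 ages with 3 distinct arrays each: the embryonic days E10.5 and E12.5, then E14.5 and E16.5, then E18.5, newborns (P0) and adults of 2 months. The 6 adult samples held only 3 distinct sets of values, each of which was counted once. By the study's methods a sample pooled the cells of several animals of either sex, the cells of newborns and adults were released by a longer digestion than those of embryos, and adult brain cells were also passed through a Percoll density gradient. Age and cell preparation can therefore not be told apart between adults and earlier stages.

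TGF-beta is made as a latent protein that has to be activated outside the cell. The active ligand binds the type II receptor (Tgfbr2), which recruits and phosphorylates the type I receptor (Tgfbr1). The type I receptor phosphorylates the receptor-regulated SMAD proteins Smad2 and Smad3, which enter the nucleus with the common partner Smad4, while the inhibitory SMAD, Smad7, acts against the receptor. In the mouse brain microglia need TGF-beta for much of their characteristic gene expression, and Sall1 is a nuclear regulator that keeps microglia in their resting identity. Sall1 is also expressed in neural progenitors and in the developing kidney.

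The promoter windows of the 3 genes whose group means were highest in adults and lowest in YSM are shown so that their sequence stands beside their levels. Each window runs from 250 bases before to 50 bases after the outermost RefSeq start of the gene in GRCm38.p6, reads 5′ to 3′ on the strand of the gene, and lies at chr8:89044113-89044412 (minus strand) for Sall1, at chr4:47352972-47353271 (plus strand) for Tgfbr1 and at chr9:116175314-116175613 (minus strand) for Tgfbr2. Capitals mark CAGAC, the core of the SMAD-binding element, or GGAAGT, an ETS-type core, on either strand.
Sall1: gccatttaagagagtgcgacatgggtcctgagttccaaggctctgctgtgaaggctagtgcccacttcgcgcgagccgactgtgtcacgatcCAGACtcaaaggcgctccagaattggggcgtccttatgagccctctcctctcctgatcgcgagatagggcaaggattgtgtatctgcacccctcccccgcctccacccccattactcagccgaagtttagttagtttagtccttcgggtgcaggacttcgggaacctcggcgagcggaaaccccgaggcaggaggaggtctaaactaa
Tgfbr1: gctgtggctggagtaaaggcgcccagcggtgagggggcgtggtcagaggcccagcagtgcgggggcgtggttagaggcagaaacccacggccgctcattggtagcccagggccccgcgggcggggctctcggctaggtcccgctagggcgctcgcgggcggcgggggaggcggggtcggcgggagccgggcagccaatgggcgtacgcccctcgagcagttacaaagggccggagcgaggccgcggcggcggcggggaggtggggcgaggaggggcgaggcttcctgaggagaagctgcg
Tgfbr2: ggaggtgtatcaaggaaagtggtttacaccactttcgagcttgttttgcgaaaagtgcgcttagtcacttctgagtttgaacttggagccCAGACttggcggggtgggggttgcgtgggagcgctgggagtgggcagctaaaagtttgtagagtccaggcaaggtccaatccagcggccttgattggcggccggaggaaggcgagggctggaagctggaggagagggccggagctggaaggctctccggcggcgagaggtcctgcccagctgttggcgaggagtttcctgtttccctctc

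Among these windows CAGAC was found 1 time in that of Sall1, 158 bases before the start, and 1 time in that of Tgfbr2, 160 bases before the start, and neither motif was found in that of Tgfbr1. RefSeq gives further starts for Sall1 and Tgfbr1: a second Sall1 window (chr8:89042813-89043112) held GGAAGT and no CAGAC, and a second Tgfbr1 window (chr4:47385966-47386265) held 1 of each. The windows of Tgfb1 and Smad3 held neither. CAGAC occurred in 49.6% and GGAAGT in 23.8% of all 32851 promoter windows of this length, so these matches describe the letters only.

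Levels are normalized log2 signals: the bead signals were corrected for background with the negative controls, an offset of 16 was added and the arrays were quantile-normalized. A probe was called detected on an array at a detection p-value under 0.01, and each gene was read from its brightest detected probe. Stages were compared with limma, and a difference was called where the Benjamini-Hochberg adjusted p over all 10630 genes was under 0.05. All 6 genes passed the moderated F test over the 8 groups, which 91% of all genes did.

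Sall1 (gene ID 58198, chr8:89027242-89044162) was detected on all 25 arrays by its brighter probe. Its levels were 7.33, 7.0, 7.44 and 7.21 in YSM, 7.54, 7.72 and 7.29 at E10.5, and 7.63, 7.71 and 7.77 at E12.5. They were 9.35, 8.65 and 8.81 at E14.5 and 10.99, 10.87 and 10.86 at E16.5. They were 11.10, 11.07 and 10.57 at E18.5, 10.70, 11.24 and 11.44 at P0, and 11.14, 11.28 and 12.15 in adults. Up to E12.5 each group overlapped the next, E14.5 stood apart from all other groups, and from E16.5 each group again overlapped the next, while adults lay above every E16.5 and E18.5 array and E12.5 above every YSM array.

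By its brighter probe Sall1 was 16.1-fold higher in adult than in E10.5 microglia, a log2 difference of 4.01 ± 0.24 (SE; adjusted p = 7.9e-12). With this probe most of that difference lay in 2 steps. At E14.5 Sall1 averaged 8.94 ± 0.37, against 7.70 ± 0.07 at E12.5 (SD, n = 3 each), and rose by 1.24 ± 0.24 on the log2 scale (2.36-fold; limma, adjusted p = 0.00956). At E16.5 it averaged 10.91 ± 0.07, against 8.94 ± 0.37 at E14.5, and rose by 1.97 ± 0.24 (3.91-fold; adjusted p = 3.8e-05). The E14.5 call was lost when E12.5 array 1 (adjusted p = 0.0593) or E14.5 array 1 (1.03, adjusted p = 0.0584) was left out. The E16.5 call held whichever 1 array was left out.

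The other consecutive steps of Sall1 did not pass. Microglia at E10.5 differed from YSM by 0.27 ± 0.22 (95% interval -0.19 to 0.74, adjusted p = 0.425), and E12.5 differed from E10.5 by 0.18 ± 0.24 (-0.31 to 0.68, 0.599). The differences were 0.01 ± 0.24 for E18.5 minus E16.5 and 0.21 ± 0.24 for P0 minus E18.5. Adults averaged 11.52 ± 0.55 and P0 averaged 11.13 ± 0.38, a difference of 0.40 ± 0.24 (-0.10 to 0.89, adjusted p = 0.174). Adult array 3 read higher than the other adult arrays, and without it the difference was 0.08. Adults were higher than E16.5 by 0.62 ± 0.24 (adjusted p = 0.0361) and than E18.5 by 0.61 ± 0.24 (0.0394). Both calls were lost without adult array 3 (0.30, adjusted p = 0.265, and 0.29, 0.278). The call over E16.5 was also lost without any 1 of the E16.5 arrays (adjusted p = 0.0544 to 0.0854), and that over E18.5 without E18.5 array 3 (0.44, 0.180). In the order of group means only the neighbours E16.5 and E14.5 and the neighbours E14.5 and E12.5 differed beyond their spread.

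The second Sall1 probe placed the first rise earlier. It was not well above background on any of the 4 YSM or 3 E10.5 arrays (4.59 to 4.90) and was detected on all 18 later arrays. At E12.5 it read 6.51, 6.63 and 7.29, against 4.68, 4.76 and 4.71 at E10.5, which is at least 1.38-fold higher at E12.5 (adjusted p over all probes = 1.0e-06), whereas the brighter probe differed by 0.18 between the same arrays. It rose by 1.60 ± 0.20 at E14.5 over E12.5 and by 1.40 ± 0.20 at E16.5 over E14.5. It was higher in adults than at P0 by 0.80 ± 0.20 (adjusted p over all probes = 0.00514), where the brighter probe did not pass. The second probe was at least 23.3-fold higher in adult than in E10.5 microglia. Both probes gave the steps at E14.5 and E16.5, and they disagreed on the steps at E12.5 and between P0 and adult.

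**Figure D1:**
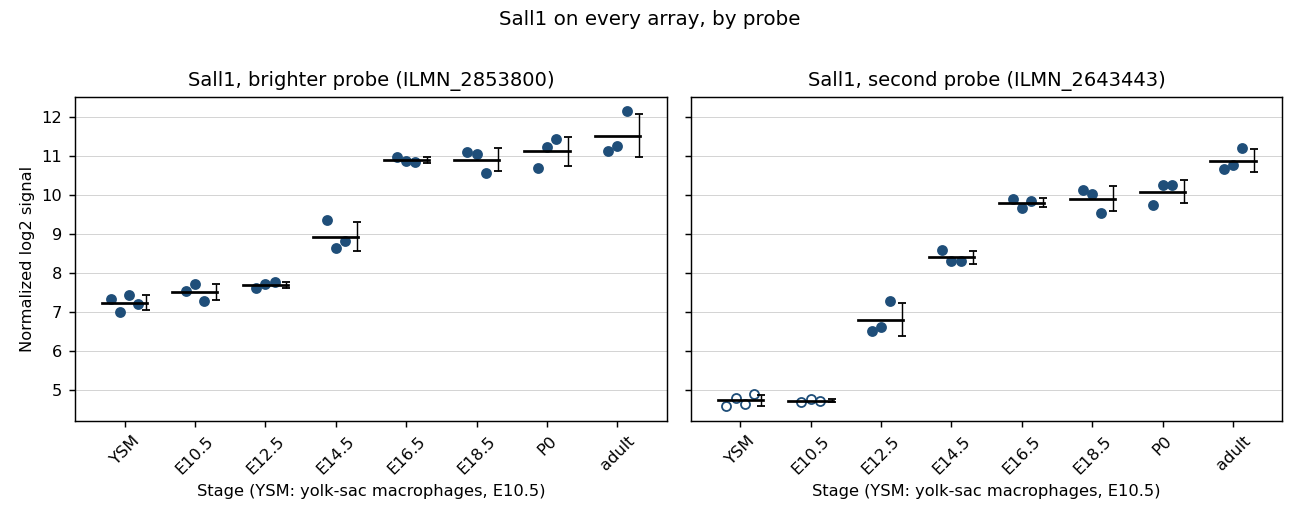
Normalized log2 signal (vertical axis) of the 2 Sall1 probes on each of 25 arrays by stage, with the group mean (line) and SD (bar); open circles are arrays on which the probe was not detected. The brighter probe stays between 7.0 and 7.77 up to E12.5 and is at 8.65 or more from E14.5, while the second probe is undetected up to E10.5 and reads 6.51 to 7.29 at E12.5.

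Across the 25 arrays the genes whose levels were most like those of Sall1 were Pld4 (Pearson r = 0.982), Fbxw4 (0.982), Blnk (0.980), Plpp1 (0.980), Lag3 (0.977) and Rnf215 (0.976), a description over arrays that share stages. Blnk, an adaptor of immune-receptor signalling, rose by 2.01 ± 0.25 at E16.5 over E14.5 (adjusted p = 4.4e-05). Pld4, an endolysosomal exonuclease, rose by 1.23 ± 0.17 at the same step (adjusted p = 1.0e-04). Lag3, an inhibitory receptor best known on T cells, was not well above background in YSM or at E10.5, was at least 1.90-fold higher at E12.5 than at E10.5, and rose by 1.81 at E14.5 and by 2.52 at E16.5. Of the other TGF-beta genes, Tgfbr2 (r = 0.862) and Tgfbr1 (r = 0.803) were the most like Sall1 and ranked 476 and 883 among 10629 genes.

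Tgfbr1, which encodes the type I receptor kinase, rose in YSM-to-brain, early embryonic and adult steps. Its levels were 12.64, 11.92, 11.98 and 12.26 in YSM, 13.43, 13.38 and 13.45 at E10.5, and 14.28, 14.07 and 14.37 at E12.5. From E14.5 to P0 the 12 arrays lay between 14.15 and 14.72, and adults read 15.85, 15.84 and 15.76. YSM, E10.5 and adults each stood apart from every other group, and E12.5 overlapped E14.5.

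Tgfbr1 rose by 1.22 ± 0.14 in E10.5 microglia over YSM (2.33-fold; limma, adjusted p = 1.6e-05), by 0.82 ± 0.14 at E12.5 over E10.5 (1.77-fold; 2.6e-04) and by 1.27 ± 0.14 in adults over P0 (2.41-fold; 4.5e-07). With the probe in use the 4 steps between E12.5 and P0 ranged from -0.01 to 0.21 and none passed. With the arrays scaled to their 75th percentile the E12.5 difference was 0.41 (adjusted p = 0.103). YSM arrays also had a lower background signal (63.9 to 73.2) than microglial arrays (108 to 155), so array background and tissue cannot be told apart in the comparison with YSM.

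All 4 probes of Tgfbr1 were called higher in adults than at P0. The difference was 1.27 with the probe in use, 1.48 and 2.14 with those detected at P0, and at least 3.21-fold with the probe that was not well above background there. Of the 3 other probes, 1 also rose at E10.5 over YSM, where it was not well above background on any array (at least 1.61-fold higher at E10.5), at E12.5 (1.16 ± 0.32, adjusted p over all probes = 0.0221) and at E16.5 over E14.5 (1.05 ± 0.32, 0.0328). A second, detected on all 25 arrays, differed by 0.21 ± 0.21 (0.551) and 0.39 ± 0.23 (0.379) at these steps. The probe in use was at 69.2% to 95.8% of the highest signal of the array in adults, where 11 to 18 probes were brighter, against 133 to 153 at P0 and 779 to 1396 in YSM.

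Tgfbr2, which encodes the ligand-binding type II receptor, changed at the same steps. Its levels were 12.15, 11.96, 12.20 and 11.88 in YSM, 12.43, 12.58 and 12.54 at E10.5, and 13.30, 13.03 and 13.19 at E12.5. They lay between 13.43 and 13.96 on the 12 arrays from E14.5 to P0 and were 14.64, 14.67 and 14.63 in adults. No array of YSM, E10.5, E12.5 or adults overlapped another group.

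Tgfbr2 rose by 0.47 ± 0.11 in E10.5 microglia over YSM (1.38-fold; adjusted p = 0.00597), by 0.66 ± 0.12 at E12.5 over E10.5 (1.58-fold; 3.3e-04) and by 0.86 ± 0.12 in adults over P0 (1.82-fold; 5.2e-06). It was 4.38-fold higher in adult than in E10.5 microglia (2.13 ± 0.12). Under 75th percentile scaling the first 2 of these differences were 0.45 (adjusted p = 0.0705) and 0.30 (0.202), and the adult difference was 1.13. A second probe, detected on 24 of 25 arrays, had its largest step at E16.5 over E14.5 (1.05 ± 0.27, adjusted p over all probes = 0.0117), where the probe in use differed by -0.05 ± 0.12. That second probe differed by 0.42 ± 0.25 at E10.5 over YSM (adjusted p over all probes = 0.277) and by 0.33 ± 0.27 at E12.5 over E10.5 (0.589). Between adults and P0 it differed by 0.25 ± 0.27 (0.679), so the E10.5, E12.5 and adult calls of Tgfbr2 rested on the probe in use. Between adult and E10.5 microglia the second probe differed by 1.91 ± 0.27. With the mean of all kept probes Tgfbr2 did not pass at E10.5 over YSM (0.32, adjusted p = 0.0878) or at E12.5 over E10.5 (0.35, 0.0605).

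Tgfbr1 and Tgfbr2 resembled each other across the 25 arrays (Pearson r = 0.961, rank 16 of 10629 genes). In the order of group means Tgfbr1 differed between the neighbours adult and E18.5, E14.5 and E10.5, and E10.5 and YSM. Tgfbr2 differed between adult and P0, E16.5 and E12.5, E12.5 and E10.5, and E10.5 and YSM. The genes most like Tgfbr1 were Tns3 (0.977) and Chd9 (0.975), and those most like Tgfbr2 were Clgn (0.981) and Rnaset2b (0.980). Both receptors had a lower spread within groups than most genes (SD 0.17 for Tgfbr1 and 0.13 for Tgfbr2).

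**Figure D2:**
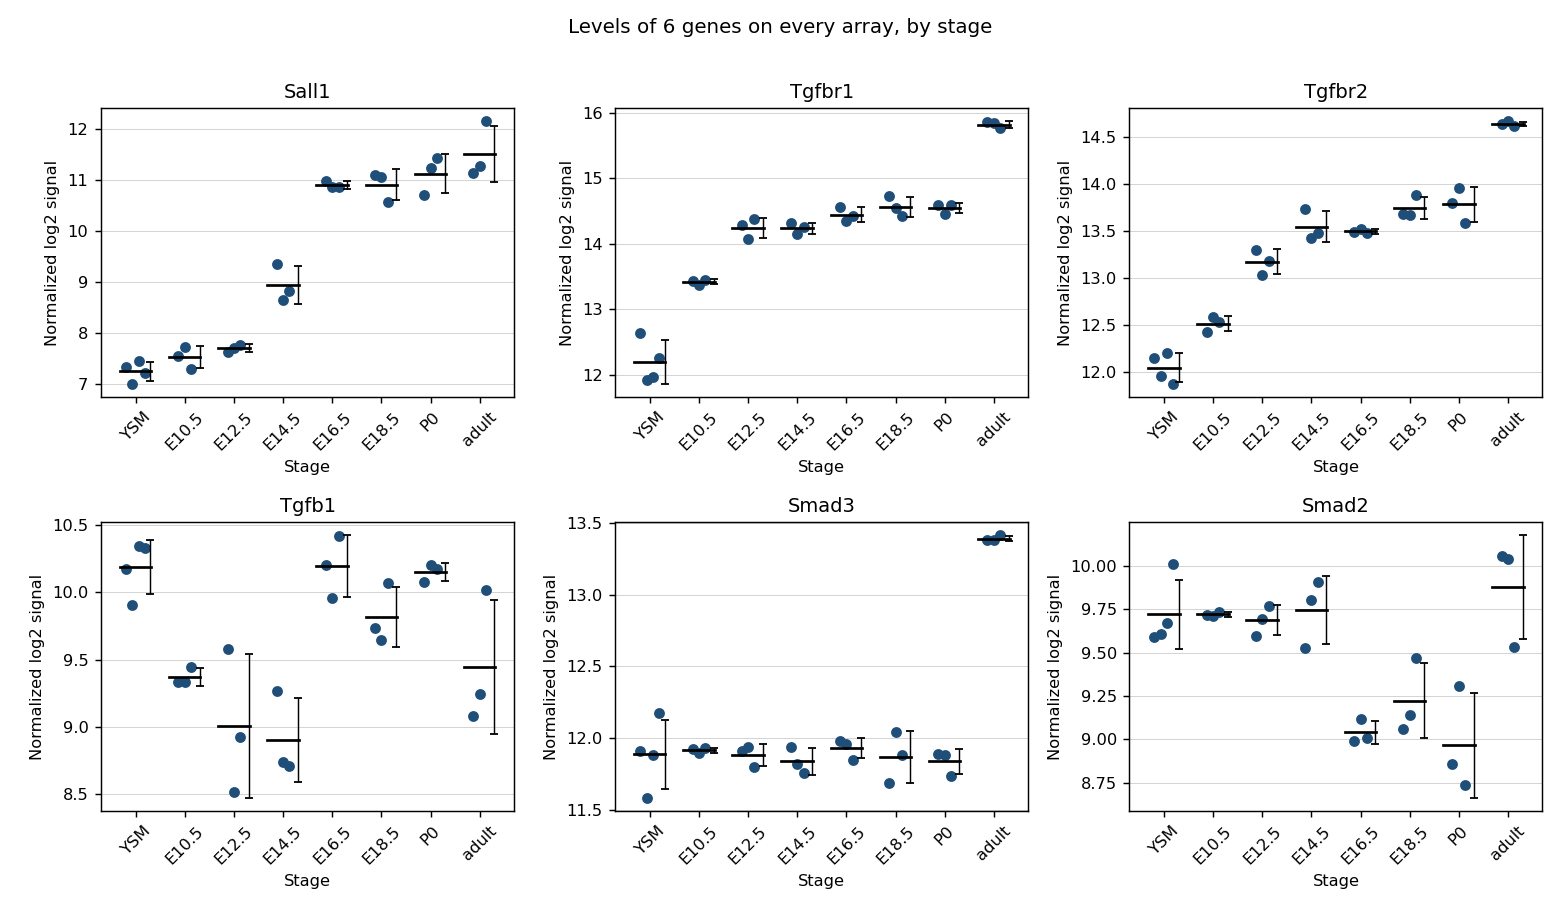
Normalized log2 signal (vertical axes, each with its own scale) of Sall1, Tgfbr1, Tgfbr2, Tgfb1, Smad3 and Smad2 on each array by stage, with the group mean (line) and SD (bar). Tgfbr1 and Tgfbr2 are lowest in YSM and highest in adults, Smad3 stays between 11.58 and 12.17 up to P0 and is 13.38 to 13.41 in adults, and Tgfb1 and Smad2 have no such course.

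Tgfb1, the gene of the ligand, did not follow its receptors. Its levels were 10.17, 9.91, 10.34 and 10.32 in YSM, 9.33, 9.33 and 9.45 at E10.5, 9.58, 8.52 and 8.93 at E12.5, and 9.27, 8.74 and 8.71 at E14.5. They were 10.20, 9.96 and 10.42 at E16.5, 9.73, 9.65 and 10.07 at E18.5, 10.07, 10.20 and 10.17 at P0, and 9.08, 9.25 and 10.01 in adults. E10.5 lay below every YSM array, E16.5 lay above every E14.5 array, and adult array 3 reached the embryonic levels of E18.5 while the other adult arrays did not.

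Tgfb1 fell by 0.81 ± 0.23 in E10.5 microglia relative to YSM (1.76-fold lower; limma, adjusted p = 0.0158) and rose by 1.29 ± 0.24 at E16.5 over E14.5 (2.44-fold; 7.6e-04). In adults it fell by 0.70 ± 0.24 relative to P0 (1.62-fold lower; adjusted p = 0.0205). The E10.5 call was lost without E10.5 array 1 (adjusted p = 0.0549) or 2 (0.0527), and the adult call without P0 array 2 (0.0540), adult array 1 (0.114) or adult array 2 (0.080), and under 75th percentile scaling (-0.59, 0.0560). Adult and E10.5 microglia differed by 0.08 ± 0.24 (95% interval -0.43 to 0.58). None of the neighbours in the order of its group means differed beyond their spread.

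Smad3, which carries the signal of the activated type I receptor, was level through development under quantile normalization and higher in adults. Its 22 earlier arrays lay between 11.58 and 12.17, with group means from 11.84 to 11.93. Adults read 13.38, 13.38 and 13.41, above every other array. The adult difference was 1.55 ± 0.12 over P0 (2.94-fold; limma, adjusted p = 1.75e-09) and 1.48 ± 0.12 over E10.5 (2.78-fold; 1.1e-09), and under 75th percentile scaling the difference from E10.5 was 0.87 (adjusted p = 1.0e-04). The 6 earlier steps ranged from -0.06 to 0.09 and none passed. Under 75th percentile scaling they ranged from -0.39 to 0.04, again with none passing, and the adult difference over P0 was 1.72.

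The second Smad3 probe gave the same adult step, 1.52 ± 0.14 over P0 (adjusted p over all probes = 3.8e-08), with 10.86, 11.23 and 11.04 in adults, against 9.70, 9.55 and 9.32 at P0. It was also higher in E10.5 microglia than in YSM by 0.45 ± 0.13 (0.0206), a step at which the brighter probe differed by 0.03 ± 0.11. In the order of its group means only the neighbours adult and E16.5 differed. The genes most like Smad3 were Csmd3 (r = 0.967) and Lrba (0.966). Csmd3 was detected on the adult arrays alone (mean 11.58), so its r sets adults against arrays on which it was not detected.

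**Figure D3:**
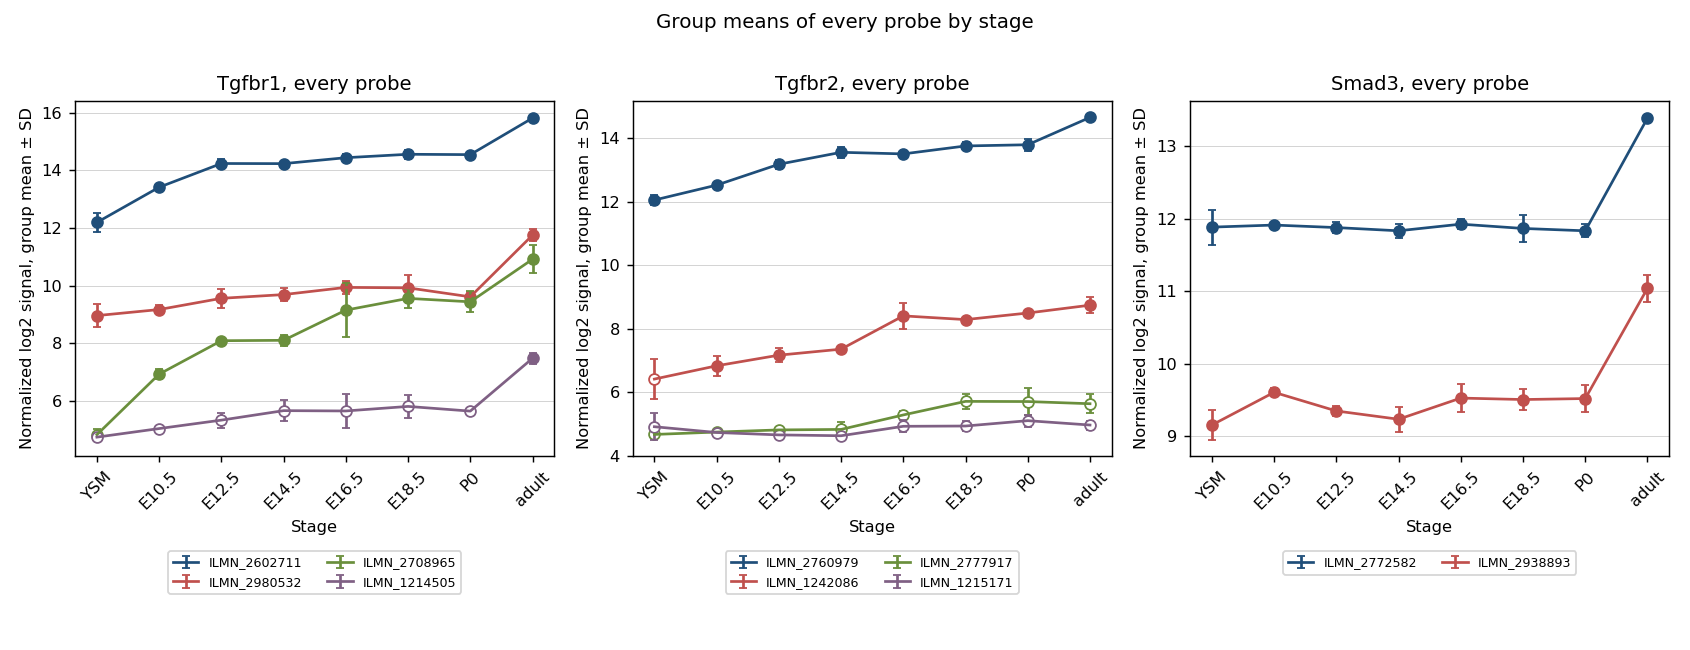
Group mean ± SD of the normalized log2 signal (vertical axis) by stage for every probe of Tgfbr1, Tgfbr2 and Smad3; open circles are groups in which the probe was not detected on all arrays. Levels of different probes cannot be set against each other, and their courses show that the adult rise is shared by all 4 Tgfbr1 probes and both Smad3 probes and that the Tgfbr2 probes differ.

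Smad2, the other receptor-regulated SMAD, took a different course from Smad3. Its levels were 9.59, 9.61, 9.67 and 10.01 in YSM, 9.72, 9.71 and 9.74 at E10.5, 9.60, 9.69 and 9.77 at E12.5, and 9.53, 9.80 and 9.91 at E14.5. They were 8.99, 9.12 and 9.01 at E16.5, 9.06, 9.14 and 9.47 at E18.5, 8.86, 9.31 and 8.74 at P0, and 10.06, 10.04 and 9.53 in adults. The arrays from E16.5 to P0 all lay below those of the other groups.

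Smad2 fell by 0.70 ± 0.16 at E16.5 relative to E14.5 (1.63-fold lower; limma, adjusted p = 0.00342) and rose by 0.91 ± 0.16 in adults over P0 (1.88-fold; 1.2e-04). Adult and E10.5 microglia differed by 0.15 ± 0.16 (95% interval -0.19 to 0.50). At E16.5, E18.5 and P0 the 75th percentile of the signal was 2.64 to 3.49 times the background, against 1.40 to 2.43 on the others. This array property moved with both steps of Smad2, and its part in them was not tested. Under 75th percentile scaling the differences were -0.83 and 0.97. The property moved equally with the E16.5 steps of Sall1 and Tgfb1 and with the adult steps of Tgfbr1, Tgfbr2, Tgfb1 and Smad3. Its part in these was not tested either. Under 75th percentile scaling the E16.5 differences were 1.75 for Sall1 and 1.12 for Tgfb1. In the order of the Smad2 group means only the neighbours E12.5 and E18.5 differed (0.46, adjusted p = 0.0295). The genes most like Smad2 were F8a (r = 0.933) and Slu7 (0.929).

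Smad7, the inhibitory SMAD and itself a target of TGF-beta in many cells, had signals of 63.1 to 158.9 and detection p-values of 0.208 to 0.999 over the 25 arrays. Its probe was not well above background on any array and gave no level.

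Set beside the whole array, the 6 tested genes gave the following counts. In E10.5 microglia over YSM 2 rose and 1 fell, where 10% of all genes rose and 9.51% fell. At E12.5 over E10.5 2 were called, both higher, and 30.7% of all genes were called in either direction. At E14.5 over E12.5 1 was called, where 1.38% of all genes were. At E16.5 over E14.5 2 rose and 1 fell (12.9% of all genes rose and 20% fell). At E18.5 over E16.5 and at P0 over E18.5 limma called 0 of the 6, and 2.32% and 0.0564% of all genes, of which 1572 and 568 had an unadjusted p under 0.05. In adults over P0 4 rose and 1 fell (24.2% rose and 26.9% fell), and in adult over E10.5 microglia 4 rose and 0 fell (30.6% rose and 35.6% fell). The median difference of the 6 genes in adults over P0 was 0.88, and that of all genes was -0.03.

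**Figure D4:**
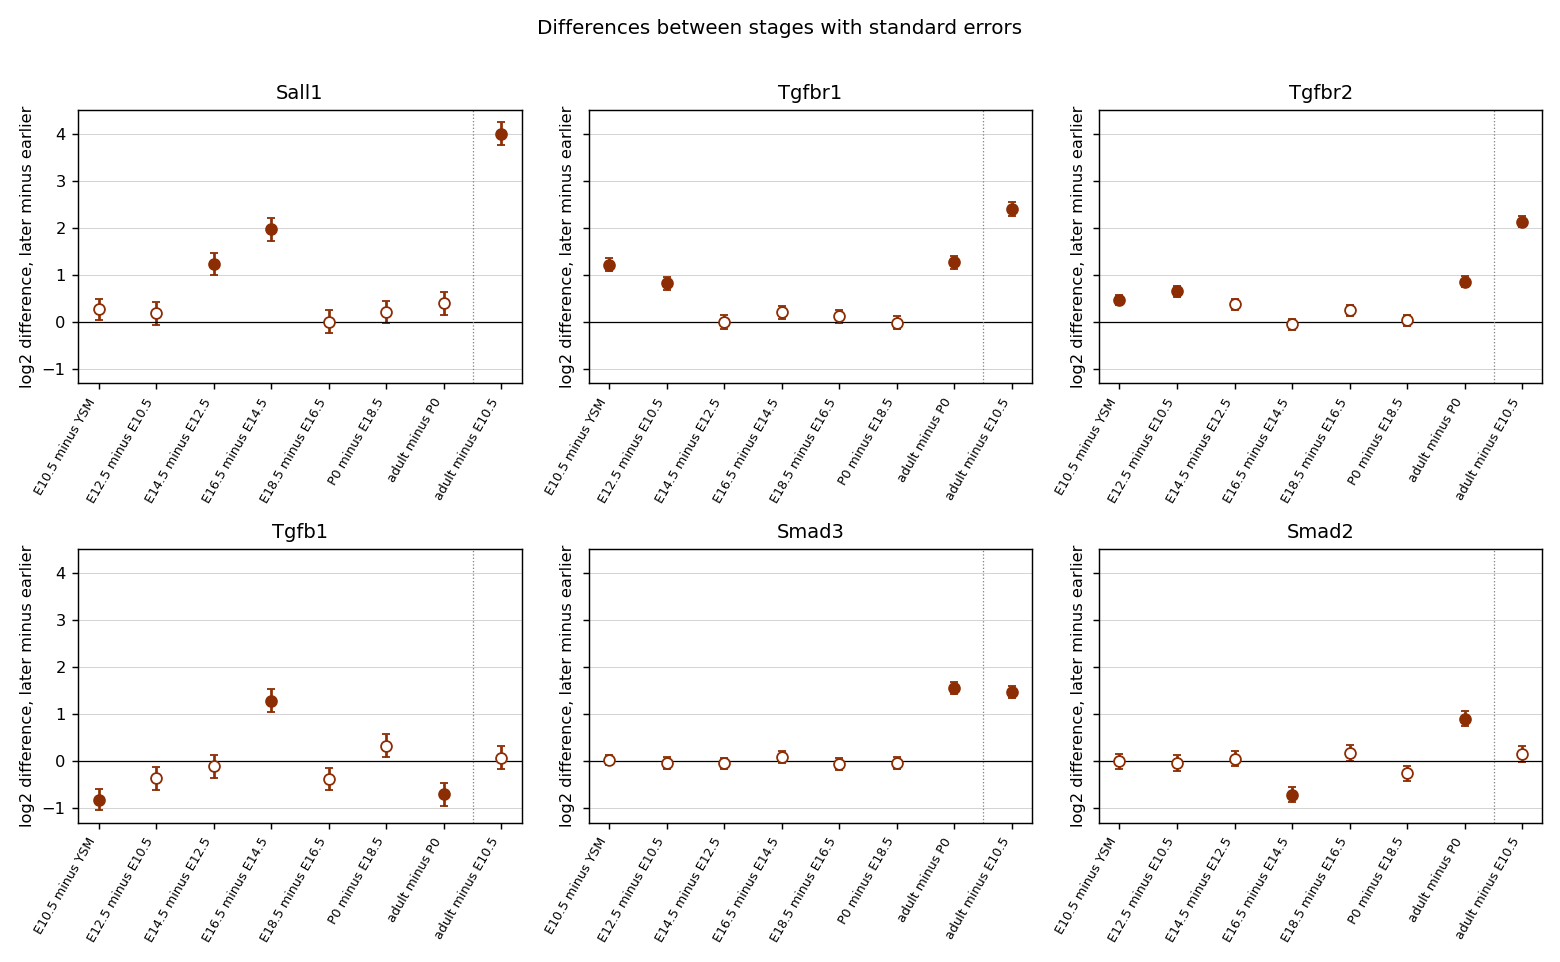
Log2 difference between stages, later minus earlier (vertical axis), with its standard error for the 7 consecutive comparisons and, right of the dotted line, for adult minus E10.5 microglia; filled circles passed an adjusted p of 0.05. Sall1 has its called consecutive steps at E14.5 and E16.5, Tgfbr1 and Tgfbr2 at E10.5, E12.5 and adult, and Smad3 at adult alone.

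Among other Sall genes, Sall2 and Sall3 rose and Sall4 fell between E10.5 and adult microglia. Sall3 averaged 11.78 in adults and 9.69 at E10.5 (2.09 ± 0.26; adjusted p = 4.6e-07), and Sall2 averaged 8.99 and 6.74 in the same order (2.24 ± 0.23; 2.4e-08). Both rose in adults over P0, by 1.01 ± 0.26 and 1.06 ± 0.23, a step at which the brighter Sall1 probe did not pass. Sall4, which is best known from pluripotent cells, was not well above background from E12.5 onwards and was at least 1.99-fold lower in adult than in E10.5 microglia (6.1e-06).

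Of 17 further genes listed for TGF-beta ligands and their activation 12 were measured. In adult over E10.5 microglia 5 rose and 1 fell (30.6% of all genes rose and 35.6% fell), with a median of 0.73 and -0.09 for all genes. Mmp14, a membrane metalloproteinase that can release active TGF-beta, rose by 3.46 ± 0.39 (adjusted p = 1.3e-07). The integrin subunits Itgav and Itgb5, whose dimer binds the latent complex, rose by 2.90 ± 0.39 and 2.68 ± 0.21. Ltbp3, a latent TGF-beta binding protein, was not well above background at E10.5 and was at least 1.36-fold higher in adults (4.6e-05). Nrros, which tethers latent TGF-beta on microglia and macrophages, fell by 0.93 ± 0.21 in adults relative to P0 (0.0012).

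Of 13 listed receptors and co-receptors of the wider family 8 were measured, and in adult over E10.5 microglia 5 rose and 0 fell (median 0.96), against the same shares of all genes. The activin and bone morphogenetic protein (BMP) receptors Acvr2b and Acvr1 rose by 2.04 ± 0.23 and 1.74 ± 0.12. The co-receptor Eng fell by 0.90 ± 0.20 at E12.5 relative to E10.5 and rose by 2.04 ± 0.20 in adults over P0 (4.7e-08). Acvrl1, another type I receptor, was not well above background at E10.5 and was at least 1.26-fold higher in adults (0.0036).

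Of 20 listed SMADs and SMAD regulators 16 were measured, of which 7 rose and 3 fell in adult over E10.5 microglia (median 0.38), where 30.6% of all genes rose and 35.6% fell. Pmepa1, a membrane adaptor that TGF-beta induces and that sequesters receptor-regulated SMADs, was not well above background at E10.5 and was at least 15.9-fold higher in adults (3.0e-12). It rose by 2.71 ± 0.29 in adults over P0. The co-repressor Ski rose by 2.43 ± 0.25 between E10.5 and adult microglia and had its step at E16.5 over E14.5 (1.05 ± 0.25, adjusted p = 0.0041). Fkbp1a, which binds the inactive type I receptor, fell by 2.25 ± 0.17. Sptbn1, a spectrin that can act as a SMAD adaptor, was not well above background in adults by the probe in use and at least 5.05-fold lower there (7.3e-11), while another of its probes, detected on all 3 adult arrays, averaged 6.45 in adults and 6.65 at E10.5.

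General TGF-beta target genes moved both ways. Of 14 listed 11 were measured, and in adult over E10.5 microglia 4 rose and 4 fell (median -0.50, against -0.09 for all genes). These counts were close to the shares of all genes, of which 30.6% rose and 35.6% fell. Id2 rose by 4.48 ± 0.63 (adjusted p = 2.5e-06) and Junb by 2.86 ± 0.53. Id1, an inhibitor of DNA binding that BMP signals induce in many cells, was not well above background in adults and was at least 3.30-fold lower there (1.4e-07). In adults over P0 2 of the 11 rose and 5 fell, where 24.2% of all genes rose and 26.9% fell. Of 9 listed BMP and activin ligands 2 were measured, and Inhba was called (1.04 ± 0.29) although it was not well above background at E10.5 and was detected on 1 of 3 adult arrays.

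Genes known to need TGF-beta in mouse microglia rose together. Of 16 listed 14 were measured, Tgfbr1 among them, and all 14 rose in adult over E10.5 microglia (median 3.93; 30.6% of all genes rose). Olfml3 rose by 5.49 ± 0.36, Tmem119 by 5.13 ± 0.30, Siglech by 4.95 ± 0.29 and P2ry12 by 4.69 ± 0.17. By step, 8 of the 14 rose in E10.5 microglia over YSM, 10 at E12.5, 1 at E14.5 (P2ry12, 0.91 ± 0.17), 8 at E16.5, 0 at E18.5 and at P0, and 12 in adults. Of all genes 10% rose in E10.5 microglia over YSM, 12.9% at E16.5 and 24.2% in adults, and 30.7% at E12.5 and 1.38% at E14.5 were called in either direction. Slc2a5 was called lower in E10.5 microglia than in YSM (adjusted p = 0.0095), with no bound on the fold because it was not well above background at E10.5. The call of P2ry12 at E14.5 was lost without E12.5 array 1 (adjusted p = 0.0649).

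The sorted cells carried macrophage genes throughout. All 8 listed macrophage identity genes were detected on every microglial array, and 7 or 8 on the YSM arrays. Their summed signal was 25701 to 30957 in YSM, 29138 to 34351 at E10.5 and 84562 to 128195 in adults. In adult over E10.5 microglia 7 rose and 1 fell (median 1.60), where 30.6% of all genes rose and 35.6% fell. Of the 8, 4 rose and 1 fell at E12.5 over E10.5, and 4 rose and 0 fell at E16.5 over E14.5. Of all genes 30.7% were called in either direction at E12.5, and 12.9% rose and 20% fell at E16.5. Of 11 listed neural progenitor and neuron markers 6 were measured, and since Sall1 is also a neural progenitor gene their summed signal stands beside it: 953 to 1321 in YSM, 1343 to 1722 at E10.5, 2061 to 8097 at E12.5, 5464 to 10536 at E14.5, 4521 to 4767 at E16.5, 3498 to 10961 at E18.5, 3352 to 6223 at P0 and 200.3 to 257.0 in adults. Of the 6, 3 rose in E10.5 microglia over YSM and 3 at E12.5 over E10.5 (median 1.53), the medians were 0.80 at E14.5 and -0.46 at E16.5 with no member past the threshold, and all 6 fell in adults relative to P0. Among all genes 10% rose in E10.5 microglia over YSM, and 26.9% fell in adults relative to P0. In adults Nes, Fabp7, Sox11, Stmn2 and Dcx were not well above background on any array. The listed progenitor genes Sox2, Pax6 and Hes5 were not measured, and Fabp7 was also not well above background on any array from YSM to E16.5. The sums at these stages are therefore only a partial measure of neural progenitor RNA. In bulk arrays, fewer cells of a type and less RNA per cell cannot be told apart.

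The 8 listed border macrophage markers moved with the E12.5 and adult steps. Their summed signal was 98716 to 114715 at E12.5, against 30560 to 39600 at E10.5 (7 of 8 rose). It was 1001 to 1113 in adults, against 55670 to 142348 at P0 (8 of 8 fell). At E12.5, 30.7% of all genes were called in either direction. In adults over P0, 24.2% of all genes rose and 26.9% fell. The same shares apply to the counts of the further lists below at these steps. Immediate early and heat-shock genes had a higher mean log2 signal in adults, 11.82 to 13.13, against 9.98 to 11.02 at P0, and 5 of 7 rose. Their summed signals overlapped, at 43710 to 120159 in adults and 41948 to 51998 at P0. The lowest adult sum was that of adult array 3, without which the Sall1 calls over E16.5 and E18.5 were lost. Astrocyte and oligodendrocyte markers summed to 10970 to 12950 in adults, against 4565 to 6036 at P0 (3 of 7 rose and 4 fell). Erythroid markers summed to 65026 to 67235 in adults, against 7790 to 38710 at P0 (1 of 6 rose). They also differed at the YSM step, with sums of 3668.8 on YSM array 1, 76774.9 to 90116.5 on the other YSM arrays and 6388.5 to 24842 at E10.5. In E10.5 microglia over YSM 0 of the 6 rose and 1 fell, where 10% of all genes rose and 9.51% fell. Neutrophil and monocyte markers summed to 26111 to 34840 in YSM, 12471 to 32508 at E10.5, 329 to 6577 at E12.5 (4 of 8 fell over E10.5) and 257.3 to 281.7 in adults. E12.5 array 1 read 6577, against 549 and 329 on the other E12.5 arrays. E14.5 array 1 read 4905, against 274 and 256 on the other E14.5 arrays. Leaving out either of these arrays removed the Sall1 call at E14.5 over E12.5. On E14.5 array 1, which had the highest Sall1 level of its stage (9.35), neural progenitor and neuron markers summed to 10536. On the other E14.5 arrays they summed to 5532 and 5464. On E12.5 array 1 they summed to 2743, against 8097 and 2061 on the other E12.5 arrays. The part of these lists in the steps of Sall1, the receptors and the SMADs was not tested.

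**Figure D5:**
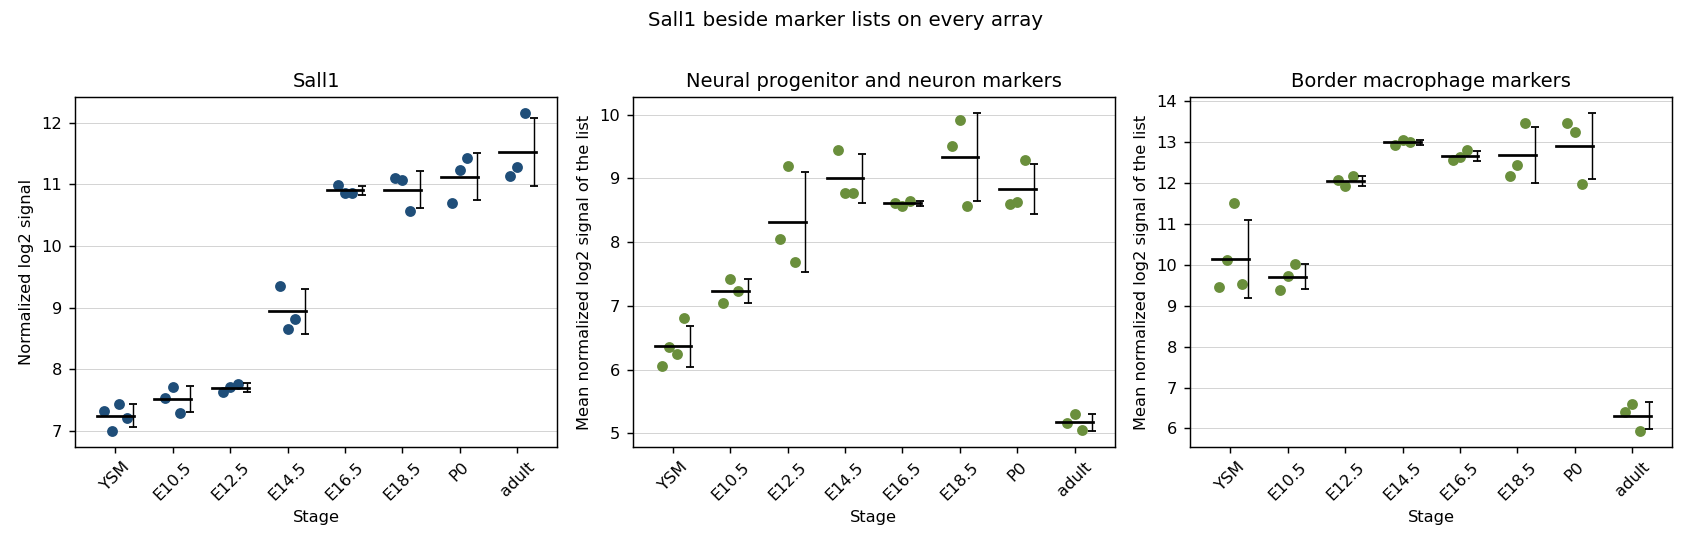
Normalized log2 signal of Sall1 (brighter probe) and mean normalized log2 signal of the neural and border macrophage marker lists (vertical axes, each with its own scale) on each array by stage, with the group mean (line) and SD (bar). Sall1 is highest in adults, where both marker lists are lowest.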

How the data were processed

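Per the file headers, the deposited non-normalized table held a signal intensity and a detection p-value for each probe and array. The authors had read these from the scans with GenomeStudio and made a quantile-normalized table with lumi (versions not given in the sources used here). Another 56 per-sample columns were not used. The 25 distinct arrays were corrected and quantile-normalized with neqc in limma 3.58.1 (R 4.3.3), with an offset of 16. A probe entered the fit if 3 or more arrays had detected it at 0.01 (19789 did), and the brightest gave the level of its gene. Platform annotation named 34885 probes with 1 symbol, 18 with several and 10378 with none. One linear model of 8 groups was fitted with 17 residual degrees of freedom, with moderated tests and Benjamini-Hochberg adjustment over 10630 genes. Other probes were tested in a fit over all 45281 probes. A bound on a fold used, for a probe not well above background, the lowest detected signal of each array or its own signal if higher. The genes and lists were chosen with earlier results of these data known. Lists are described by counts and medians and were not tested as sets. Within a list up to 4 called genes with the largest difference between adult and E10.5 microglia were named, and any other name was chosen after its values were seen. The replicate arrays are pools, and p-values measure only the spread between them. Arrays are numbered in column order. The fit was tested on simulated data. The number of arrays limits the precision. Alternatives covered background, scaling, offset, filter, probes, variance model, test and each array left out. Promoter windows came from RefSeq (GRCm38.p6). The sign changes and the fits of adult Sall1 against E16.5 and E18.5 with 1 array left out were added after seeing the data.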

Additional observations from a re-analysis of the deposited data

How the results depend on the processing

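Of 480 differences of Tgfbr1, Tgfbr2, Tgfb1, Smad3 and Smad2 under 12 alternatives, 469 kept their side of the threshold, 7 lost a call and 4 gained one. The sign changed in 18, in 0 of which the difference had been called. The alternatives of filter, variance model and test left the differences of these genes unchanged and could alter only the calls. With scaling to the 75th percentile 0 of the 6 genes were called at E12.5 over E10.5, because Tgfbr1 and Tgfbr2 lost their calls, and Sall1 was higher in adults than at P0 by 0.56 (adjusted p = 0.0239). The same scaling called Tgfbr2 at E16.5 over E14.5 (-0.46), while the mean of all kept probes called it in the other direction (0.48). Under this scaling the median of all genes was -0.18 at E12.5 (-0.01 otherwise), -0.29 at E16.5 (-0.08), 0.11 in adults over P0 (-0.03) and -0.38 in adults over E10.5 (-0.09). The genes called were 915 higher and 2725 lower at E12.5 (1537 and 1725 otherwise), 826 and 3193 at E16.5 (1374 and 2121), 2937 and 2104 in adults over P0 (2570 and 2863), and 2405 and 4562 in adults over E10.5 (3256 and 3789). The mean of all kept probes gave Sall1 differences of 1.14 at E12.5 over E10.5 (adjusted p = 3.0e-04) and 0.60 in adults over P0 (0.0191), and the second Sall1 probe alone gave 2.09, at least 1.38-fold since it was not well above background at E10.5, and 0.80. Under the methods' one-way test with Tukey's adjustment 2 genes were called at E14.5 over E12.5, Tgfbr2 besides Sall1, and Tgfb1 lost its adult call (0.162), as it did under 75th percentile scaling (0.0560). The cause of these changes was not tested. Leaving out 1 array at a time, Sall1 at E14.5 over E12.5 ranged from 1.03 to 1.38 and the number of genes called there from 0 to 1. Of 64 differences of other probes 17 had the other sign, and in 4 of these the probe in use had been called, all at Tgfbr2: a probe detected on 0 arrays gave -0.18 at E10.5 over YSM, -0.075 at E12.5 over E10.5 and -0.14 in adults over P0, and a probe detected on 4 arrays gave -0.068 in adults over P0.

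Replicate numbers did not pair the arrays: deviations of same-numbered arrays correlated between -0.634 and 0.470, and 6 of 25 arrays were most like an array of their own number. With the replicate number as a block, in the series' value table, Sall1 at E16.5 over E14.5 differed by 1.76 with and without it, and 5 of the 6 genes in place of 4 were called in adults over E10.5, where Smad2 gained a call (0.34, adjusted p = 0.0337).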
